A study of Mus musculus with 4 samples.

Results

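The genes described here carry the names of the vesicle exocytosis machinery: synaptotagmins, syntaxins, syntaxin-binding proteins, Vamp and Snap proteins, complexins, Rab3 and Rab27 genes, Rims and Unc13 genes and synapsins. They were chosen by gene name alone, with no measured value. The rule took in 91 genes, of which 39 were put in a neuronal-type class (regulated release in neurons and endocrine cells), 38 in a general class (traffic found in most cells, or blood and epithelial forms) and 14 in a class of others. The last class holds Rab30 to Rab39b, whose names only begin with the letters Rab3, together with Vamp7-ps and Vamp9. The classes were set from general knowledge and not from the data, and some placements in the general class, such as Syt11 and Syt14, are uncertain. Of the 91 genes, 85 had at least 1 ATAC-seq peak named for them by the authors' annotation, with 1057 of 417506 peaks over the 4 libraries. Merged across libraries, these peaks made 588 of 255101 regions.

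ATAC-seq, which reads open chromatin by where a transposase inserts adapters, was done on LβT2 cells (LbT2 or LbT2b in the labels, LβT2b in their protocols), an established mouse line of the gonadotrope lineage of the pituitary. Cells seeded at 350000 per well were kept overnight in serum-free medium and given vehicle or activin A at 1 nM for 6 h, and each transposase tube held 50000 cells. Activin A is a ligand of the TGFβ family that stimulates transcription of Fshb, a hormone gene of gonadotropes. There were 2 libraries per treatment, all from this 1 line, and the labels do not say whether the libraries of a group came from separate cultures, so any p-value measures only the spread between these samples.

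A secretory vesicle fuses when its Vamp protein zips together with a syntaxin and a Snap25-type protein of the plasma membrane into a SNARE complex. Syntaxin-binding and Unc13 proteins prepare that complex, complexins hold it, synaptotagmins make it respond to calcium, Rab3 and Rab27 with their Rims partners bring vesicles to the membrane, and synapsins tether reserve vesicles. Gonadotropes use this machinery to release stored luteinizing hormone when gonadotropin-releasing hormone raises their calcium, while many of the general members serve the Golgi, endosomes and lysosomes of most cells.

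Depth ran from 172146474 to 224226184 high-quality autosomal reads per library. The peaks called numbered 83344 and 178358 under vehicle against 85112 and 70692 under activin, so vehicle library 2 stood apart, and 11.1% of its high-quality reads lay in its peaks against 6.93% to 8.73% in the others. Start sites were enriched 2.72 and 2.48 times in the vehicle libraries and 3.12 and 3.04 times in the activin libraries, and both activin libraries had more peaks at or above a −log10 q of 5 (19819 and 15807) than both vehicle libraries (12377 and 12760). This library-wide gap moves with the treatment, and every −log10 q below is to be read beside it. Of 9 genes listed as gonadotrope markers, 8 had a start-site peak in all 4 libraries, Lhb, Cga, Gnrhr and Egr1 at a −log10 q of at least 5. Egr1 is not specific to gonadotropes. Fshb had no start-site peak in any library. None of 7 markers of other anterior pituitary lineages had one in all 4 libraries, nor did 6 of 7 markers of folliculostellate, fibroblast, endothelial and blood cells, the exception being Cdh5 (5.15 and 3.22 with vehicle, 13.0 and 8.74 with activin).

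Start sites are shown first by sequence, because the members differ in how many CpG dinucleotides they carry there. Each window runs from 250 bases before to 50 bases after a RefSeq start (GRCm38.p6), is written 5′ to 3′ on the gene's strand, and has every CG in capitals. The first 3 belong to genes with a peak over the start in all 4 libraries: Stxbp5l at chr16:37384909-37385208 (minus strand, 18 CpG), Syt9 at chr7:107370540-107370839 (plus strand, 49 CpG, the most of any member) and Snap29 at chr16:17405750-17406049 (plus strand, 33 CpG).
Stxbp5l: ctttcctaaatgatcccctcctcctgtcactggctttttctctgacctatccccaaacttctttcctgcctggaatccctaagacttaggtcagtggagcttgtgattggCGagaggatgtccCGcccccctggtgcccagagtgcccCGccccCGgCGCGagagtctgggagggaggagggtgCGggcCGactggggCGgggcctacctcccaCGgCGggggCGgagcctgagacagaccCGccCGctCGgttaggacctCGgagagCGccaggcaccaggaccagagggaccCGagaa
Syt9: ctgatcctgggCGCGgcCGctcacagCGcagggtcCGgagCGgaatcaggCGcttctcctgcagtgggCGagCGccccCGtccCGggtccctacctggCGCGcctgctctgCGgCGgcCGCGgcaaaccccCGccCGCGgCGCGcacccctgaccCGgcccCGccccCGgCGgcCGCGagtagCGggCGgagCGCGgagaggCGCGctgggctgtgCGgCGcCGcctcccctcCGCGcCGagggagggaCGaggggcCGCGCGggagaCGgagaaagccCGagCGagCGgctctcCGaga
Snap29: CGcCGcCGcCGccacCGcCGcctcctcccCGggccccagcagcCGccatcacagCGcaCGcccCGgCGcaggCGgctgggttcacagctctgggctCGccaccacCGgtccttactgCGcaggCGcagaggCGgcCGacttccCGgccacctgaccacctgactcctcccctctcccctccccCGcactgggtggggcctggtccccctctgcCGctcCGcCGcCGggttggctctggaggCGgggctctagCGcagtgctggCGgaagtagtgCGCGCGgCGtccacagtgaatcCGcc

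The next 3 belong to neuronal-type genes with no start-site peak in any library: Syt1 at chr10:109010926-109011225 (minus strand, 8 CpG), Unc13c at chr9:73968988-73969287 (minus strand, 6 CpG) and Rab3d at chr9:21918134-21918433 (minus strand, 26 CpG). Rab3d is shown because it had no peak although its window holds more CpG than that of Stxbp5l.
Syt1: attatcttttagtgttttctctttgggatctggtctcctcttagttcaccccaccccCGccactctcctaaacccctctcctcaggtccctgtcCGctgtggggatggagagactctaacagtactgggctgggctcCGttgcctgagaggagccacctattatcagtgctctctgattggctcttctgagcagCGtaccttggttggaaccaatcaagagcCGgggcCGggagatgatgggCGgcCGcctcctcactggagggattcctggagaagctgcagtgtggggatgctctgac
Unc13c: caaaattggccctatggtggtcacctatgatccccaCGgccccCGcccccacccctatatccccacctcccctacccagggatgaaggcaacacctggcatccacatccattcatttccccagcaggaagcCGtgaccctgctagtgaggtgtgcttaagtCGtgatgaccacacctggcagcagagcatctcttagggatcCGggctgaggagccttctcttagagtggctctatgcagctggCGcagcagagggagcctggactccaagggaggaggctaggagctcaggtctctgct
Rab3d: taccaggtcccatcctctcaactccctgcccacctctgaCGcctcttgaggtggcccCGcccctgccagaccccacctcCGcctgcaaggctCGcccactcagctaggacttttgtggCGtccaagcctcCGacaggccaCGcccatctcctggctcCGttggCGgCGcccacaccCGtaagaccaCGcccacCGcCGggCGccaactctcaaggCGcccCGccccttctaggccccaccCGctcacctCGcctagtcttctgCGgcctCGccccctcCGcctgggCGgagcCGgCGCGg

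RefSeq windows were found for 67 of the 91 genes, 86 windows in all, and their median was 19 CpG against 7 over all 32851 windows of the table and 13 over the 21262 windows of protein-coding genes. Among neuronal-type genes the median was 21 CpG in the 21 windows of genes with a start-site peak in all 4 libraries and 13.5 in the 10 windows of the others. Among general genes it was 19 in 34 windows and 14 in 11. The same order held over protein-coding genes at large, with a median of 22 for those with a peak in all 4 libraries and 3 for those with none, so it is not particular to the members.

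**Figure D1:**
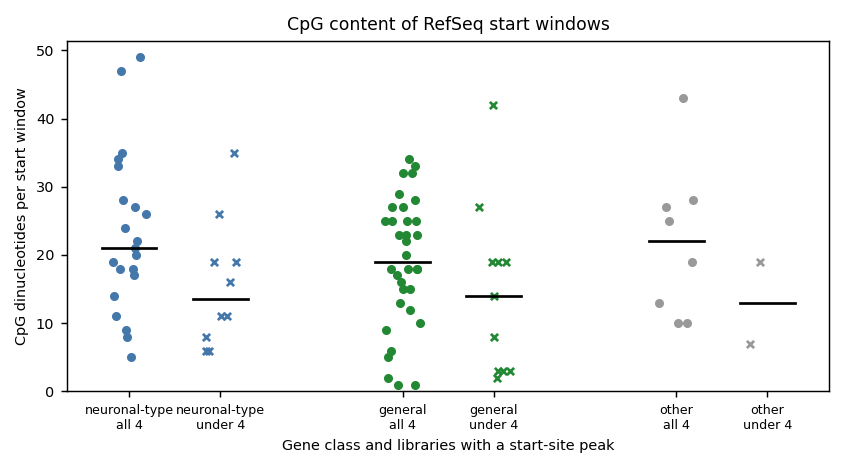
CpG dinucleotides per RefSeq start window (vertical axis, count in 300 bases) for neuronal-type, general and other members, split by whether the gene had a start-site peak in all 4 libraries (dots) or in fewer (crosses). Bars are medians (21 and 13.5 for neuronal-type genes), and the groups overlap widely.

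Named motifs were counted on both strands of the same windows. The GC box GGGCGG, bound by Sp factors, was in 67.4% of member windows and 35.7% of all windows, and in 66.0% of windows of protein-coding genes with a peak in all 4 libraries. GCGCATGC, the NRF1 motif, was in 9.30% of member windows and 2.71% of all windows, and in 5.53% of windows of protein-coding genes with a peak in all 4 libraries. Both motifs hold CG and so overlap the CpG count. All 8 member windows with GCGCATGC belonged to genes with a start-site peak in all 4 libraries, as did 63 of the 86 member windows in all. Of 747 protein-coding windows with the motif, 643 belonged to such genes. The window of Snap23, at chr2:120567421-120567720 on the plus strand, is shown as an example. Its capitals mark 1 palindromic stretch that matches once on each strand.
Snap23: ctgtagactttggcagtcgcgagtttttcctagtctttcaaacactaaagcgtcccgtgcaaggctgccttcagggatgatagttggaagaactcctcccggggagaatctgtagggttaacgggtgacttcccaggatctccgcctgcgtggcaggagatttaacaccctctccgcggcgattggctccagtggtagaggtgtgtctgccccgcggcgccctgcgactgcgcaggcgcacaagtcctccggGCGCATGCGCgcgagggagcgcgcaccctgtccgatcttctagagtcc

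TGACGTCA, the cyclic AMP response element, was in 2.33% of member windows and 1.79% of all windows, and the AP-1 motif TGANTCA in 6.98% and 7.81%. The palindromic SMAD motif GTCTAGAC was in none of the 86 member windows and in 0.213% of all windows, and the shorter SMAD motif CAGACA was in 15.1% and 21.0%. TCAAGGTCA, the motif of the gonadotrope factor Nr5a1, was in 1.16% and 0.423%. For the RE1 element of the neuronal repressor REST, its parts CAGCACC and GGACAG were searched separately, and they were in 9.30% and 22.1% of member windows against 7.14% and 22.2% of all windows. These are letter matches in 300 bases and nothing was drawn from them about binding.

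A start-site peak was present in all 4 libraries for 66 of the 91 genes: 30 of 39 neuronal-type genes (76.9%), 26 of 38 general genes (68.4%) and 10 of 14 others (71.4%). Here a start-site peak is one in a merged region that the authors' annotation calls promoter of that very gene, or that overlaps the gene's RefSeq start window. Where that region held several peaks of a library, the strongest was used, even if it did not itself cover the start. The second route matters because the annotation measures from 1 start per gene, which lay over 10 kb from the RefSeq start for 15 of the 85 genes with a named peak. Rims1, a scaffold that joins Rab3 to the release site, was off by 373 kb, Syt9 by 133 kb and Stxbp5 by 103 kb. By the promoter annotation alone, the order of the classes turned: 24 of 39 neuronal-type genes (61.5%) and 25 of 38 general genes (65.8%) had a peak in all 4 libraries, with 56 of 91 in all.

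For the background, only RefSeq windows can be used for every gene. Of 17491 protein-coding genes, 51.8% had a peak over a window in all 4 libraries, and of the 67 members with a window 49 did (73.1%). Asking for a −log10 q of at least 5 in all 4 libraries left 43 members: 15 neuronal-type (38.5%), 20 general (52.6%) and 8 others (57.1%), with 37.7% of protein-coding genes on the window rule. Snap25 is among the 15 only through upstream peaks of its region in the vehicle libraries (11.3 and 6.38). The vehicle peaks over its start itself had 3.72 and 4.49. On the window rule alone, 9 of 25 neuronal-type genes (36%) and 19 of 33 general genes (57.6%) reached it, so the neuronal-type share was near the background. The −log10 q is the significance the authors' peak caller gave a peak against local background in its own library, and grows with depth as well as with openness.

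The neuronal-type start sites were the weaker class by this measure. Counting genes without a peak as 0, neuronal-type genes had a median −log10 q of 4.22 and 4.32 in the vehicle libraries and of 8.26 and 6.37 in the activin libraries. General genes had medians of 5.38 and 5.82 under vehicle and of 12.2 and 9.21 under activin. The log2 ratio of neuronal-type to general medians was −0.47 ± 0.098 (SD over 4 libraries), and was negative in all 4. By the promoter annotation alone it was −1.09 ± 0.24, also negative in all 4. By read density, which is high-quality reads per kb of peak per 1000000 high-quality autosomal reads of the library, the mean log2 ratio, again with genes without a peak as 0, was −0.08 and its sign differed between libraries (0.06 and −0.16 with vehicle, −0.17 and −0.05 with activin). The same reads per kb differ 2.57-fold between chromosome averages, from 0.242 on chromosome 3 to 0.624 on chromosome 17, and within 1.05-fold between libraries. Divided by the chromosome's mean, the density gave a log2 ratio of −0.20, negative in all 4 libraries. Over genes with a start-site peak in all 4 libraries alone, the median density was 2.66 for neuronal-type and 3.34 for general genes, and 6.15 and 8.33 times the chromosome's mean.

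**Figure D2:**
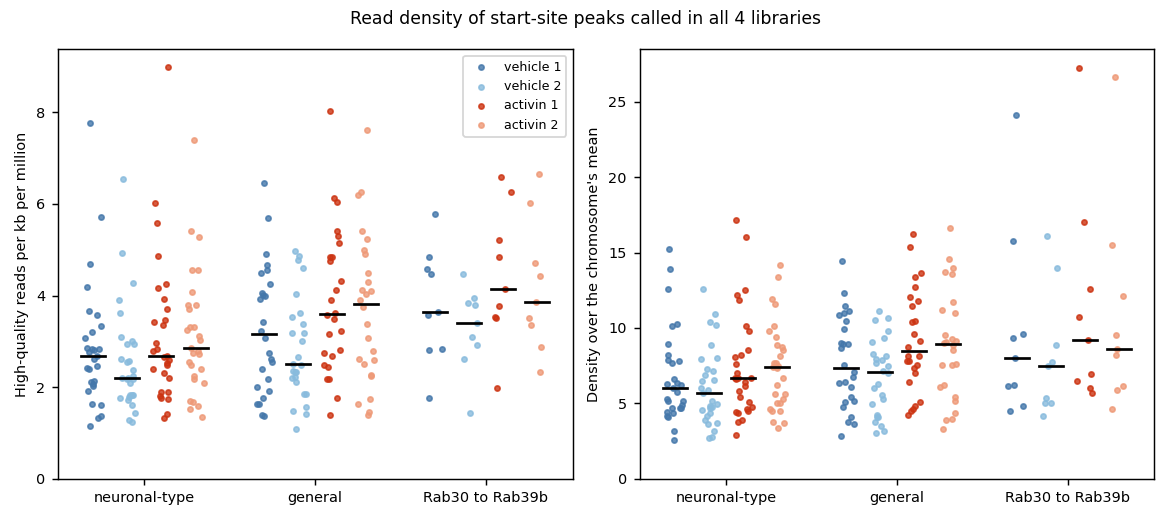
Read density of the start-site peaks called in all 4 libraries, 1 dot per gene and library, as high-quality reads per kb per 1000000 (left) and divided by the chromosome's mean (right), for neuronal-type genes, general genes and the Rab30 to Rab39b genes. Bars are medians, and the neuronal-type and general genes overlap over nearly their whole range.

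Stxbp5l (ENSMUSG00000022829), which encodes tomosyn-2, a syntaxin-binding inhibitor of SNARE assembly, had the strongest start-site peak of all 91 genes, at chr16:37384256-37385525. The vehicle libraries gave it a −log10 q of 62.2 and 52.2 and the activin libraries 82.9 and 62.3. Its read density was 7.76 and 6.54 under vehicle against 8.98 and 7.40 under activin. The treatments overlapped by density, since activin library 2 lay below vehicle library 1. Its 18 CpG put the printed window near the middle of the members, so the strongest peak did not sit on the richest window.

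Syt7 (ENSMUSG00000024743), a slow, high-affinity calcium sensor of dense-core vesicles, came next among neuronal-type genes, at chr19:10388412-10389675. The vehicle libraries gave −log10 q values of 21.3 and 19.9 and the activin libraries 25.7 and 20.4, with densities of 5.71 and 4.94 against 5.57 and 5.41.

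Snap91 (chr9:86879252-86881014), a clathrin adaptor of synaptic vesicle retrieval and not a SNARE despite its name, had −log10 q values of 14.6, 15.2, 28.8 and 19.1 in vehicle libraries 1 and 2 and activin libraries 1 and 2, the order used from here on. Syn3 (chr10:86498183-86499267), a synapsin, had 16.3, 14.2, 31.2 and 23.3. Both were lower in each vehicle library than in either activin library, in the direction of the library-wide gap.

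Syt9 (chr7:107370318-107371621), a calcium sensor of some neurons and endocrine cells, had 13.6, 14.3, 23.6 and 18.2 over the CpG-rich window printed above. Vamp1 (chr6:125215171-125215978), a vesicle SNARE, had 11.5, 13.3, 18.9 and 17.6. Rab3a (chr8:70754438-70755375), the main Rab3 of synaptic vesicles, had 13.0, 9.58, 23.3 and 14.2. The neuronal-type genes described so far were chosen for a high value of their lowest −log10 q over the 4 libraries.

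The 8 general genes chosen in the same way follow. Vamp4 (chr1:162570242-162571504), a SNARE of the trans-Golgi network, had −log10 q values of 38.6, 34.3, 52.7 and 40.6. Snap29 (chr16:17405121-17406387), a soluble Snap25 relative that acts on several membranes, autophagosomes among them, had 31.1, 26.6, 57.2 and 50.4. Vamp3 (chr4:151057317-151059168), the cellubrevin of recycling endosomes, had 34.3, 26.3, 56.1 and 43.9. All 3 were above every neuronal-type gene but Stxbp5l in each library.

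Rab3gap1 and Rab3gap2, the subunits of the enzyme that switches Rab3 off, were both strong. Rab3gap1 (chr1:127868477-127869247) had 21.9, 21.7, 35.6 and 31.9, and Rab3gap2 (chr1:185203805-185204638) had 18.4, 22.0, 24.0 and 22.0. Both peaks were named for neighbours in the annotation (Map3k19 and Snora36b).

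Syt14 (chr1:193034995-193036486), a synaptotagmin that does not bind calcium, had 27.2, 20.1, 36.0 and 27.4. Stx6 (chr1:155158276-155159300), a Golgi and endosome syntaxin, had 19.6, 17.4, 37.6 and 18.2, with activin library 2 between the vehicle libraries. Snap23 (chr2:120567200-120568069), the widely expressed relative of Snap25, had 16.6, 25.7, 31.7 and 29.4, with vehicle library 2 nearer the activin libraries than vehicle library 1.

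**Figure D3:**
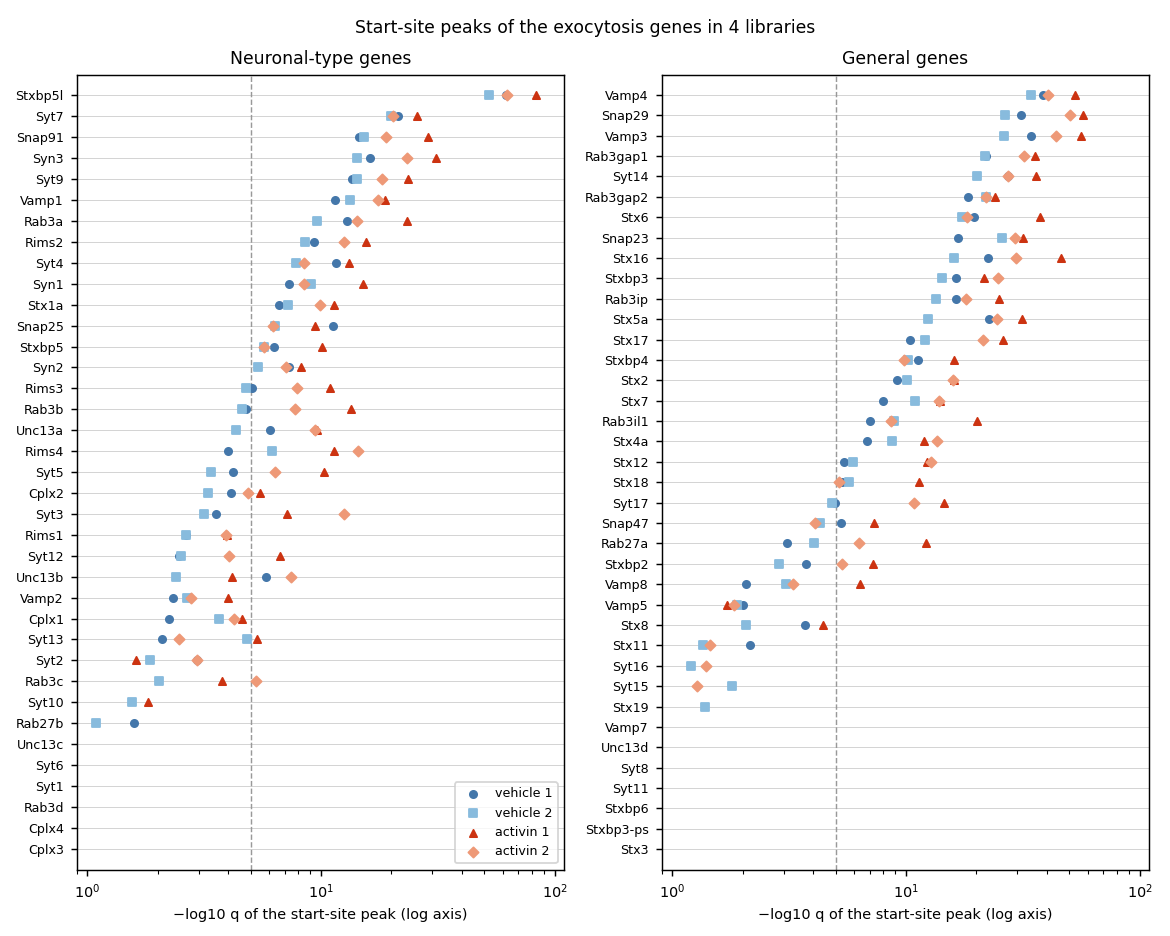
−log10 q of the start-site peak (horizontal log axis) of neuronal-type genes (left) and general genes (right), with 1 marker per library and none where no peak was called; the dashed line is at 5. Stxbp5l stands highest (52.2 to 82.9), and the lowest rows are genes with no start-site peak.

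The members are given by family from here on, and counts in families this small are not read against the backgrounds of 51.8% and 37.7%. Of 17 synaptotagmins, only some of them calcium sensors, 10 had a start-site peak in all 4 libraries. Of these, 4 had a −log10 q of at least 5 throughout: Syt4, Syt7, Syt9 and Syt14. Syt1, the fast sensor of synaptic vesicles, had none, its nearest trace being an exonic peak in activin library 2 alone, 109 to 303 bp past the start, with a −log10 q of 1.28. Syt6 had none either, and Syt10 had weak peaks in vehicle library 2 (1.56) and activin library 1 (1.81).

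Among the SNARE families, Snap23, Snap25, Snap29 and Snap47, 11 of 15 syntaxins and 6 of 9 Vamp genes, which include the pseudogene Vamp7-ps, had a start-site peak in all 4 libraries. Stx1a, the syntaxin of neuronal and endocrine plasma membranes, had 6.60, 7.24, 11.3 and 9.94. Vamp2, the partner SNARE on the vesicle, had 2.33, 2.66, 4.00 and 2.79, so its peak was weak in each library. Stx3, a syntaxin of apical membranes, counts as without a start-site peak only because no peak met that definition. A peak centred about 253 bp past its annotated start was present in all 4 libraries (8.03, 11.9, 20.0 and 13.2). It was annotated to the first exon or first intron, and lay within 1 kb of a RefSeq start window in each library.

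Most Rims, Unc13 and complexin genes had a start-site −log10 q below 5 in at least 1 library, or no start-site peak. All 4 Rims genes had a peak in all 4 libraries, but only Rims2 stayed at or above 5 (9.31, 8.56, 15.6 and 12.6). Unc13a (6.08, 4.32, 9.58 and 9.41) and Unc13b (5.83, 2.40, 4.17 and 7.47), which prime vesicles, had one in all 4 libraries, and Unc13c had none. Of the complexins, Cplx1 (2.24, 3.67, 4.62 and 4.23) and Cplx2 (4.14, 3.28, 5.48 and 4.86) did, while Cplx3 and Cplx4, known from the retina, had none. The Cplx2 values are those at its RefSeq start, which lay 68.8 kb from the annotated start. Another Cplx2 peak, centred about 332 bp past the annotated start, had 6.35, 5.66, 10.0 and 8.05. It was annotated to the first exon or first intron and did not meet the start-site definition, although it was above 5 in each library. By read density these families were not uniformly low. The mean over the 4 libraries was above the neuronal-type median of 2.66 for Rims4 (3.96), Rims2 (3.05), Rims3 (2.88) and Unc13a (2.68). It was below that median for Rims1, Unc13b, Cplx1 and Cplx2.

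Among the Rab genes of secretory vesicles, Rab3a and Rab3b (4.76, 4.61, 13.4 and 7.74) had a peak in all 4 libraries. Rab3c lacked one in vehicle library 1 (2.04 in vehicle library 2, 3.79 and 5.27 with activin), and Rab3d, known from exocrine granules, had none. Rab27b, a Rab of secretory granules, had a weak peak in the vehicle libraries (1.58 and 1.09) and none with activin. All 4 genes named for acting on or binding Rab3 (Rab3gap1, Rab3gap2, Rab3ip and Rab3il1) were at or above 5 in every library, as were all 3 synapsins. The neuronal-type genes with no start-site peak in any library were thus Cplx3, Cplx4, Rab3d, Syt1, Syt6 and Unc13c, and those with one in some libraries were Rab27b, Rab3c and Syt10. The general genes with none in any library were Stx3, Stxbp3-ps, Stxbp6, Syt8, Syt11 and Unc13d, and those with one in some were Stx8, Stx11, Syt15, Syt16 and Stx19. Vamp7, with no named peak, no RefSeq window and no strand found, could not be assessed and is counted among the 38 as without one. In a bulk measurement, a weak peak from openness in few cells and one from little openness in all cells cannot be told apart.

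The Rab30 to Rab39b genes, which regulate other membrane traffic, had a start-site peak in all 4 libraries in 10 of 12 cases. Rab33b, a Golgi Rab, had 38.1, 30.0, 58.0 and 46.8, and Rab30, another Golgi Rab, had 34.1, 33.3, 58.2 and 42.4. Both were above every neuronal-type gene but Stxbp5l. Rab33a and Rab38 had a peak in 1 library each, and Vamp7-ps and Vamp9 had none.

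At Snap25, the plasma membrane SNARE of neurons and endocrine cells, singled out after its values were seen, the called intervals differed in shape between treatments. In both vehicle libraries 2 separate peaks were called, from −1420 to −726 bp and −53 to 942 bp of the RefSeq 5′ end in library 1, and from −1401 to −707 bp and −47 to 998 bp in library 2, with gaps of 672 and 659 bp. In both activin libraries 1 continuous peak was called, from −1420 to 966 bp and from −1557 to 1092 bp. Over the covered length the density was 2.46 and 1.97 in the vehicle libraries against 2.84 and 2.19 in the activin libraries, so the treatments overlapped. The part of the library-wide gap in peak strength in this joining was not tested, and the region could not enter the test of shared regions, which needs 1 peak per library.

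**Figure D4:**
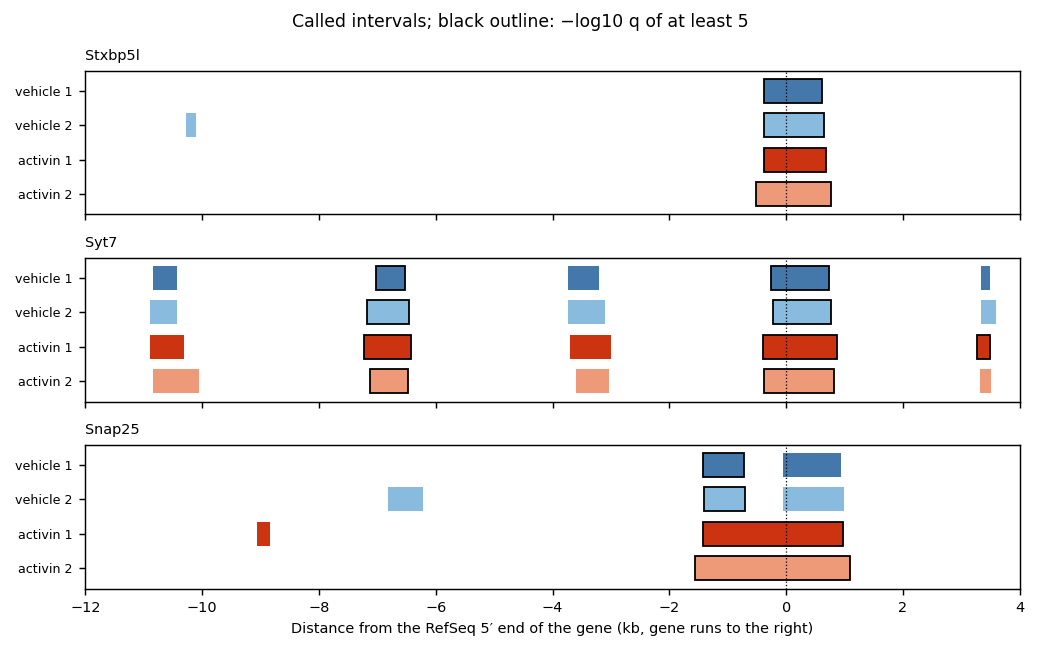
Called peaks around the RefSeq 5′ ends of Stxbp5l, Syt7 and Snap25, drawn by distance in kb with 1 row per library. Black outlines mark a −log10 q of 5 or more. At Snap25 the vehicle libraries show 2 intervals where the activin libraries show 1.

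Distal peaks, which are all named peaks not annotated as promoter and not at a start site, made 508 regions of 74 genes. By annotation alone, member peaks not called promoter were weaker than member promoter peaks. Their median −log10 q was 1.53, 1.49, 1.80 and 1.89, against 7.31, 5.96, 13.1 and 11.5. These medians still include start-site peaks that were not annotated as promoter, such as that of Rab33b. Over all peaks of each library the medians were 1.54, 1.46, 1.75 and 1.70, against 7.63, 4.38, 13.0 and 10.7 for promoter peaks. The gap was thus not particular to the members. Few distal regions recurred. Of the 508 regions, 44 (8.66%) were called in every library, while 354 (69.7%) came from a single library, 202 of the latter from vehicle library 2. Over all 237580 distal regions the shares were 8.35% and 70.2%, so the members were near the background. The neuronal-type genes held 267 distal regions and 30 of the 44 recurrent ones, spread over 16 genes, and the general genes held 188 and 10.

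The strongest recurrent distal region lay at chr7:44405438-44406510 between genes, 21.8 kb from the annotated start of Syt3, a synaptotagmin. Its −log10 q was 20.4, 11.6, 31.9 and 22.9, above the 3.57, 3.16, 7.19 and 12.5 of the Syt3 start site itself. The Stx3 peak given above came second, and is distal by annotation only, since it lay close to the start. An intergenic region at chr14:34234733-34235640, 15.5 kb from the start of Syt15, had 7.83, 9.50, 16.1 and 17.4, although the Syt15 start site had a peak in only 2 libraries.

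At Unc13d, which primes granules of blood cells and had no start-site peak, a peak at chr11:116075641-116076183 had 6.28, 7.09, 16.6 and 10.1. The annotation calls it a transcript end, but it lay only 1678 bp past the annotated start of the gene. A region in intron 1 of Rims3 (chr4:120864304-120864852) had 5.71, 19.5, 7.29 and 8.69 but only 4, 13, 4 and 1 high-quality reads. Of the 44 recurrent distal regions, 5 (at Rims3, Syt9, Rab30, Stxbp3 and Rab38) had so few high-quality reads for the authors' fold enrichment, with reads per kb over fold below −2 on the log2 scale relative to the library's median in each library. The cause was not tested.

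Rab27b had the most distal regions, 37, of which 26 were called in vehicle library 2 and 1 in every library. Syt7 had 15 with 6 in all 4, the most recurrent of any member. The one with the highest lowest −log10 q lay at −7.09 kb of the annotated start (minus is upstream), with 5.89, 5.23, 8.43 and 10.6, and others lay at −10.9, −18.5, −26.4 and −31.8 kb.

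Few member regions were restricted to a treatment. A peak in both activin libraries and neither vehicle library was found in 7 of 588 regions (1.19%, against 1.35% of all 255101 regions), and the reverse in 27 (4.59%, against 4.86%). The 4 pairs of 1 vehicle and 1 activin library gave 5, 0, 28 and 14, so at this setting the counts for the treatments lay within those for mixed pairs. At a −log10 q of at least 5, 11 of 81 member regions were restricted to activin, with 12% over all regions, and 0 to vehicle, with 0.381%. Restricted here means that only peaks reaching 5 were counted. Without that cut, the lower −log10 q of activin-restricted member regions was at most 3.26. Each of the 11 thus lay in a merged region that also held a vehicle peak. The mixed pairs then gave 0, 1, 0 and 0, so the activin count lay outside them. Over all 21240 regions at that level the activin count of 2539 also lay outside the mixed pairs (280, 21, 378 and 63), and the members' share was near the background.

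The strongest activin-restricted region was intergenic, at −55.35 kb of the annotated start of Syt7 (chr19:10333653-10333816), with −log10 q values of 3.26 and 3.66. The second lay in intron 1 of Syt16 (chr12:74013764-74014000), with 2.08 and 3.26. Restricted to vehicle were a region in an intron of Stx19 (chr16:62818627-62819023; 1.98 and 2.77) and one in an intron of Snap47 (chr11:59438297-59438925; 1.74 and 1.80). All 4 were weak.

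Activin was compared with vehicle in read density over the 13871 autosomal regions with 1 overlapping peak in each library. After each library was centred on its median region, limma with Benjamini-Hochberg adjustment at 0.05 called 0 regions (0%), with a smallest adjusted p of 0.184. At an unadjusted p under 0.05, 502 regions were higher with activin (3.62%) and 820 lower (5.91%). The fit held 54 regions named for members and 9 more that are members' start sites named for another gene. Of these none was called. At an unadjusted p under 0.05, 1 of the 54 was higher and 4 were lower, and none of the 9 was either. Activin was higher with no overlap of the treatments in 8 of the 54 (background 20.9%), and lower with no overlap in 12 (background 20.5%). The median log2 change of the 54 was −0.02, with 24 above 0, and that of all regions −0.0049. An exact permutation test of 2 against 2 libraries could not give a p below 0.333.

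Among the 54 named regions, Snap29 had the smallest unadjusted p of those higher with activin. Its high-quality reads numbered 1152 and 1216 with vehicle and 2162 and 1489 with activin, and its density was 5.69 and 4.85 against 8.03 and 7.61, so the groups did not overlap. The centred log2 change was 0.30 ± 0.090 (SE, n = 2 per treatment, limma adjusted p = 0.413). Without division by interval length the change was 0.14. Rab3ip, an activator of the Rab8 switch, came next among the 54, with densities of 3.07 and 2.22 against 3.62 and 3.90 and a log2 change of 0.25 ± 0.13 (limma adjusted p = 0.568). That change was 0.10 without vehicle library 2, 0.40 without vehicle library 1 and −0.07 without division by length. The third of the 54 was a region 32.3 kb from the annotated start of Stx19, with a log2 change of 0.16 ± 0.091 (limma adjusted p = 0.596). The annotation places it at the promoter of Arl13b, a ciliary GTPase, in 1 library and in the first exon of Arl13b in the others. Of the 9 start sites named for another gene, Stx12, an endosomal syntaxin named Gm13033 there, had a smaller unadjusted p than Rab3ip. Its densities were 1.77 and 1.58 with vehicle against 2.75 and 2.26 for activin, with a log2 change of 0.30 ± 0.14 (limma adjusted p = 0.534) that was −0.057 without division by length.

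Among regions lower with activin, the Syt7 start site had a log2 change of −0.22 ± 0.089 (limma adjusted p = 0.498), although its uncentred densities overlapped. Syt4, a synaptotagmin of dense-core vesicles, had densities of 2.39 and 1.83 against 1.90 and 2.09 and a centred log2 change of −0.35 ± 0.15 (limma adjusted p = 0.518). The peak called at Syt4 in activin library 1 was 753 bp long and those of the other libraries 430 to 484 bp. Without division by length the changes were −0.07 for Syt7 and −0.10 for Syt4. A region 32.5 kb before the annotated start of Syt9 had −2.19 ± 0.68 (limma adjusted p = 0.428) and the Rims3 intron region −1.58 ± 0.69 (limma adjusted p = 0.523). Both rest on few reads, which at Syt9 were 19, 10, 5 and 1. The 2 start sites strongest by −log10 q in their classes had log2 changes of −0.08 ± 0.11 (Stxbp5l, limma adjusted p = 0.828) and −0.15 ± 0.10 (Vamp4, limma adjusted p = 0.663).

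The scaling sets the direction of several of these. With libraries scaled to all high-quality reads, the median of all regions moved to 0.27, 605 regions were called (553 higher and 52 lower), and Snap29 was the 1 member called, at 0.57 ± 0.17 (limma adjusted p = 0.0464). Relative to that median its change was near the centred value. Syt7, Stxbp5l and Vamp4 were then above 0 (0.05, 0.19 and 0.13). Without activin library 2, 9 regions were called, and without activin library 1, 1 region, none of them a member.

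**Figure D5:**
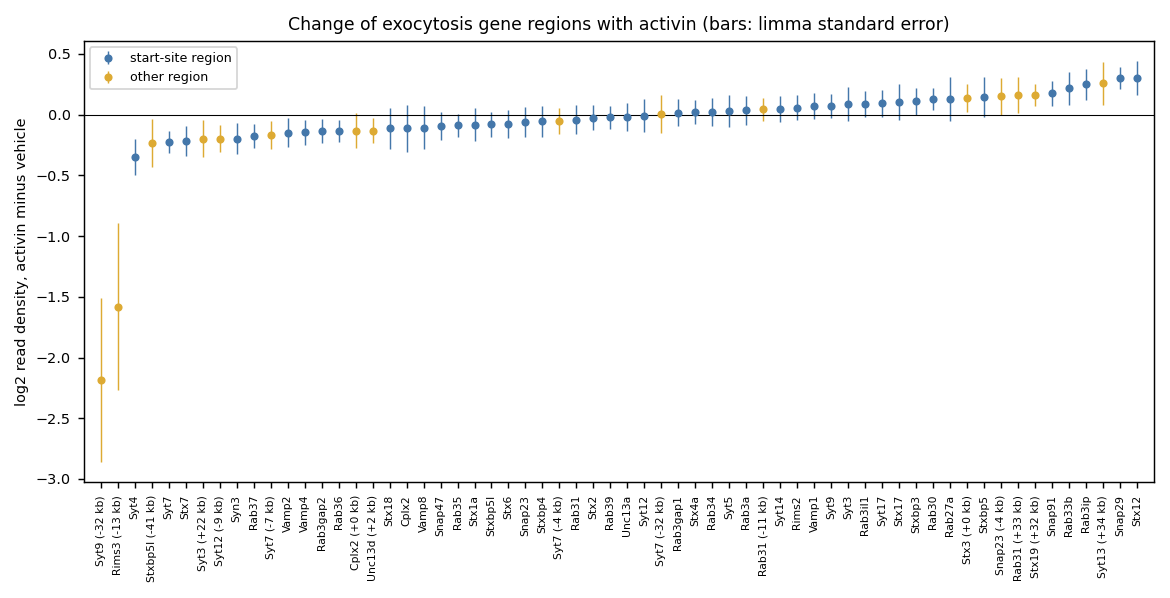
Centred log2 change in read density, activin minus vehicle (vertical axis), of member regions in the test, each with its limma standard error, for start-site regions (blue) and other regions (yellow). None passed the adjusted threshold, and the lowest points are the Syt9 and Rims3 regions with few reads (−2.19 and −1.58).

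The other genes of the pathway, taken from a list of 40 outside the name rule, were described by the same measures. A start-site peak was present in all 4 libraries for 29 of them, in some for 5 and in none for 6 (Doc2g, Rph3a, Sytl1, Sytl3, Sytl5 and Ppfia2), and 19 stayed at or above 5. The strongest was Pclo, an active-zone scaffold (47.0, 42.3, 53.3 and 40.6), and Napa, which takes spent SNARE complexes apart with Nsf, had 26.5, 24.8, 49.5 and 31.7. Of the 20 start-site regions of this list in the test, 0 were called by limma and 0 had an unadjusted p under 0.05.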

How the data were processed

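Reads were aligned and peaks called by the authors; the submitters' processing notes name Bowtie2, MACS2, HOMER and GRCm38/mm10, without versions. Per the deposited lists' layout, each broad peak, called on 1 library alone, has a score, a fold enrichment and its p-value and q-value as −log10. Per the file headers, ataqv 1.3.1 gave the number of high-quality autosomal reads over each peak, so genes on X have no density. The authors' deposited score and fold were used only to describe peaks.

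Peaks overlapping by 1 bp were merged. Shared regions had exactly 1 peak per library and a common part of at least 50% of the union. The log2 read density (1 read added, divided by the length of that library's interval), centred per library, was fitted with limma 3.58.1 (R 4.3.3; trend, no block), adjusted over all 13871 regions; this scale understates change where reads are few. The step was tested on simulated data.

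The members, classes and lists were chosen with earlier results of these data known. Genes were named by rule: the 8 highest of each class by their lowest −log10 q, the 6 strongest distal regions in all 4 libraries, the 3 smallest p-values per direction, and 2 restricted regions per treatment; other members are named by role. Values of some members these rules take in are not reported here, though they are in the counts. The rule first set down took promoters by the annotation alone. RefSeq start windows, and for 23 of 24 members without one (not Vamp7) the same window at the gene's 5′ end, were added after the annotation's names had been seen. Strand there was inferred from the annotated distances, which gave the table's strand for 97 of 97 genes checked. No genome was used here.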

Additional observations from a re-analysis of the deposited data

How the results depend on the processing

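Depth limits what can be said: only regions with a peak in each library were tested, and vehicle library 2 has the most peaks. At a −log10 q of at least 5, members with a start-site peak in all 4 libraries numbered 43 and not 66, member peaks per library 51, 51, 75 and 70 and not 222, 412, 236 and 187, and restricted regions 11 for activin and 0 for vehicle and not 7 and 27. With equally many peaks per library (70692), vehicle library 2 had 195 member peaks. Other start-site definitions gave 46 to 67 genes, and leaving out a library 66 to 67. The neuronal-type to general log2 ratio was −0.079 by density and −0.20 by density over the chromosome's mean, −1.09 by the promoter annotation alone, and −0.51 to −0.44 without 1 library; the scaling by chromosome and the RefSeq windows were chosen after seeing the data.

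Shared regions called numbered 0 as reported, 1 with a pseudocount of 10 reads, 39 without division by length, 605 scaled to all reads and 0 to 9 without 1 library. Members called numbered 0 in each of these but the scaling to all reads (1). The replicate numbers as a block gave 4 regions and 0 members; differences between replicates 1 and 2 correlated at −0.03 between treatments, so nothing but the number is known to be shared. Of 90 alternatives for 10 named regions, 82 kept direction and side of the threshold. Reversed were Rab3ip, Stx12 and Vamp4 without division by length (−0.068, −0.057 and 0.0095), Syt7, Stxbp5l and Vamp4 scaled to all reads (0.049, 0.19 and 0.13), and Stxbp5l on leaving out 1 library, with a range of −0.18 to 0.022, the latter without activin replicate 2. The cause was not tested.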
